A study of Malus domestica with 18 samples.

Results

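The first step of accelerated aging, from 7 to 14 days, was examined in the embryonic axes of apple seeds (Malus domestica, cultivar Antonówka) that received no nitric oxide (NO). These are 6 of the 18 samples of the series, 3 control samples of 7 days and 3 control samples of 14 days, chosen by their labels alone, and all 18 target genes were measured in each of them. Seeds of both groups were kept on moist quartz sand at 33 °C for 7 or 14 days, after which the embryos were isolated and cultured on water for 48 h at 25/20 °C before the axes were cut out. The step that separates the groups is therefore the time at 33 °C, while the culture was common to both, and axes of seeds that were not aged were not analysed here. Each sample is a pool of axes of 1 cultivar, and the methods call the samples biological replicates. Axes of the same 7 and 14 days fumigated for 3 h with NO, released from NaNO2 at 14.5 mM by HCl at 0.2 M, are compared only at the end. The series also holds control and NO-treated axes of 21 days, whose levels are not described here. All 18 samples entered the fit, so the NO-treated and 21-day axes share in the spread behind each limma test.

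Seeds lose vigour in storage as proteins misfold, aggregate and are chemically damaged, and warm, moist aging speeds this up. The genes measured encode proteins that meet such damage: late embryogenesis abundant (Lea) proteins protect structures in the dry state, chaperones of several families fold, hold or disaggregate proteins, and protein L-isoaspartyl methyltransferase (Pimt) repairs abnormal aspartyl residues. The kinase Tor with its partner Raptor, and the auxin-responsive Saur, belong to the control of growth that starts when an embryo germinates. Transcripts were quantified by RT-qPCR as the quantification cycle (Cq), the cycle at which the fluorescence of a product crosses a threshold, so that a later cycle means less template. No defining marker of the embryonic axis is among the 20 genes, so the labelled tissue could not be checked.

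Each value stands for the product of 1 primer pair. The primers below, written 5′ to 3′ with the last 5 bases of the extended 3′ end in capitals, are those of the reference genes and of the Hsp70, Hsp20 and Pimt transcripts, on which the main differences rest. They come from the primer list of the study.
Sar1 forward: ttgatttgggcgggcatcaGATTG
Sar1 reverse: tcatcagagaggagagcatCCAGC
Pdi forward: tgctgtacacagccaACGAT
Pdi reverse: catctttagcggcgttatCCTTG
Hsp70a forward: ttgtcgggtcagggTCTAG
Hsp70a reverse: agcattgcacattgaaGAGCG
Hsp70b forward: atcaccaacgacaaGGGCA
Hsp70b reverse: ctttgcctccaccttCTTCT
Hsp70c forward: caatgatgctcagagACAGG
Hsp70c reverse: accaccaagatcaaatACAGC
Hsp20a forward: gagaggaagagggagCAGGA
Hsp20a reverse: agccgaaacctcctcgTGAAC
Hsp20b forward: tccaggtggaggacGACAA
Hsp20b reverse: cacaaacttcctcatgaaCTTGC
Pimt forward: gatggtggatcatttgAAGAG
Pimt reverse: ctatcaatagtctccatcacTTCAG
The list names 1 gene model for Hsp70b, Hsp70c and Hsp20a, 2 for Pimt, 3 for Hsp20b and 5 for Hsp70a. Where several models are listed, their transcripts cannot be told apart by the product.

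Levels were set against Sar1, a small GTP-binding protein of vesicle transport, and Pdi, a protein disulfide isomerase of the endoplasmic reticulum, and these reference transcripts were themselves later after 14 days. Sar1 came up at 22.75, 22.54 and 22.71 cycles in the 7-day samples and at 23.12, 23.29 and 23.38 in the 14-day samples. For Pdi the cycles were 24.47, 24.19 and 24.46 at 7 days and 25.21, 25.16 and 25.30 at 14 days. The days do not overlap for either gene. Their mean moved from 23.52 ± 0.135 (SD, n = 3) to 24.24 ± 0.0876 (SD, n = 3), a delay of 0.726 cycles (standard error 0.0929, exact two-sided permutation p = 0.1, the smallest that 3 against 3 samples allow). Pdi moved further than Sar1: it lay 1.71 ± 0.0509 cycles behind Sar1 at 7 days and 1.97 ± 0.116 at 14 days (SD, n = 3, exact permutation p = 0.1). The mean of the 18 target genes moved from 24.12 ± 0.0657 cycles at 7 days to 25.18 ± 0.0318 at 14 days, a delay of 1.06 cycles (SD, n = 3, exact permutation p = 0.1), of which Hsp70c carried a part. Without Hsp70c the other 17 targets were delayed by 0.804 cycles on average, the median over all 18 was 0.767, and 9 of the 18 were delayed by less than the reference mean, 3 of them (Pimt, Hsp70a and Hsp90) coming up earlier at 14 days. PCR plate and run were not given in the sources used here, and their part in these delays was not tested.

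**Figure D1:**
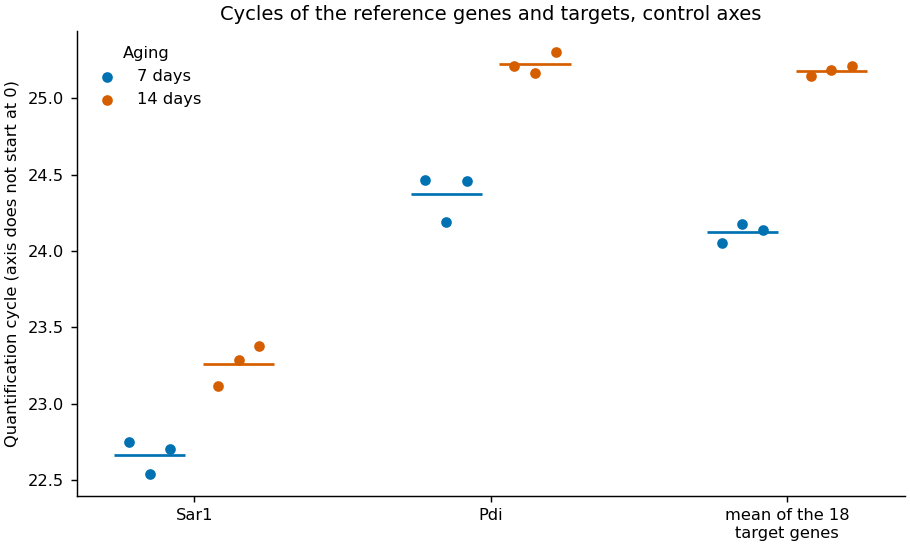
Quantification cycles (y axis, not starting at 0) of Sar1, of Pdi and of the mean of the 18 target genes in control axes of 7 days (blue) and 14 days (orange); points are samples and lines are means of 3. All 14-day samples lie above all 7-day samples, by 0.596 cycles on average for Sar1, 0.856 for Pdi and 1.06 for the targets (0.804 without Hsp70c).

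The level of a gene is the mean cycle of Sar1 and Pdi minus the cycle of the gene, a log2 value with 1 doubling per cycle, and it is given as a relative level that averages 1 (geometric mean) in the 7-day controls. This delay of the reference genes enters every level across days. Setting the targets against no reference gene lowers the median change of the 18 genes from -0.04 to -0.77 (log2), against Sar1 alone it is -0.17, against Pdi alone 0.09 and against the mean of all 18 targets 0.29. The order of the genes by change is the same under all of these, and the zero moves. In bulk tissue a lower level can mean fewer cells that hold a transcript or less of it per cell, and these cannot be told apart. The control sample of 7 days, replicate 2, had the earliest reference cycles of its group, and its relative level was the lowest of the group in 15 of the 18 genes, against 8 of 18 when no reference gene was used. Without it, 5 genes were higher and 7 lower at 14 days, against 7 and 7 with it.

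Of the 18 genes, 14 passed the test between 7 and 14 days (77.8% of those tested, limma on all 18 samples of the series, Benjamini-Hochberg adjusted p under 0.05), 7 higher (38.9%) and 7 lower (38.9%). Pimt, Hsp70a, Hsp90, ClpB1, Hsp20b, Lea2a and ClpB4 were higher, of which the last 4 lay below 0 without a reference gene. Hsp70c, Cpn60b, Hsp20a, Cpn60a, Tor, Saur and Raptor were lower (Raptor at 0.0036 when centred on the targets), and Lea1, Lea2b, Lea4 and Hsp70b did not pass. The share of calls that were higher depends on the normalizer: Sar1 alone gave 4 higher and 7 lower (61.1% called), Pdi alone 8 higher and 6 lower (77.8%), raw cycles with no reference gene 1 higher and 13 lower (77.8%), and centring on the targets 10 higher and 5 lower (83.3%). Under all 5 normalizers 9 genes kept their direction: Pimt, Hsp70a and Hsp90 above 0, and Hsp70c, Hsp20a, Cpn60a, Cpn60b, Tor and Saur below. Pimt was called higher, and Hsp70c, Hsp20a, Cpn60a, Cpn60b and Tor were called lower, under each of the 5. In 12 genes (66.7%) the relative levels of the days did not overlap, 6 with all 14-day samples above and 6 with all below.

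**Figure D2:**
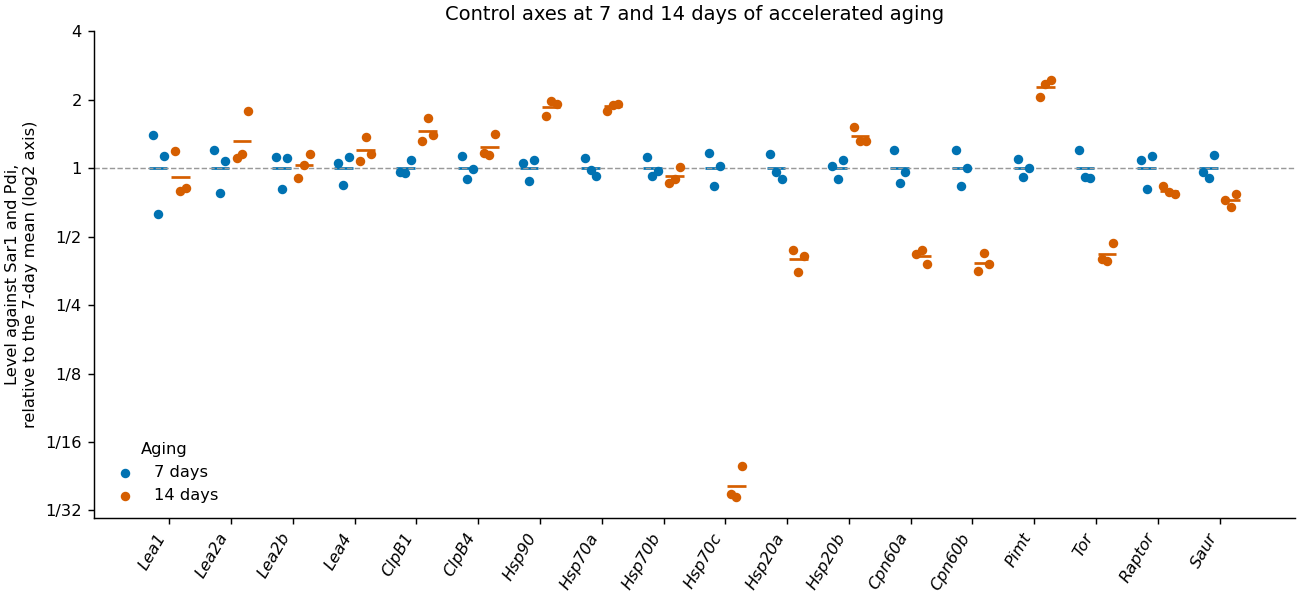
Level against Sar1 and Pdi, relative to the 7-day mean (y axis, log2 scale), of the 18 target genes in each control sample of 7 days (blue) and 14 days (orange); short lines are geometric means of 3. Hsp70c lies near 0.04 at 14 days, far below the others, and Pimt is highest, at 2.07 to 2.44; without a reference gene all 14-day levels would be lower by 0.726 on the log2 scale, and those of Lea2a, Lea2b, Lea4, ClpB1, ClpB4 and Hsp20b would lie below 1 on average.

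The Hsp70 chaperones, which bind unfolded stretches of other proteins in cycles of ATP hydrolysis, held the strongest fall of all genes measured. Hsp70c, matched by the study to a mitochondrial Hsp70 of Arabidopsis, was at 1.17, 0.832 and 1.03 in the 7-day samples and at 0.0370, 0.0358 and 0.0489 in the 14-day samples. Every 14-day sample held a small fraction of the lowest 7-day sample. The mean level fell from 1.01 ± 0.170 to 0.0406 ± 0.00721 (SD, n = 3), 24.9-fold (log2 -4.64 with a standard error of 0.14, limma adjusted p = 3.6e-22). In cycles, Hsp70c moved from 25.25 ± 0.125 to 30.61 ± 0.171 (SD, n = 3), and its 14-day cycles, up to 30.76, were the latest of all the genes in these samples. The log2 change ran from -5.36 without a reference gene to -4.31 when centred on the targets, and from -4.78 to -4.52 when single control samples were left out.

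Hsp70a, matched to an Arabidopsis Hsp70 of another branch, moved the other way. It was at 1.11, 0.981 and 0.920 at 7 days and at 1.79, 1.91 and 1.91 at 14 days. All 14-day samples lay above all 7-day samples, and the log2 change was 0.90 (standard error 0.13, limma adjusted p = 4.0e-07). Without a reference gene the change was 0.18 and did not pass (adjusted p = 0.114). Hsp70b, matched to a cytosolic Hsp70, was at 1.12, 0.920 and 0.975 at 7 days and at 0.857, 0.894 and 1.01 at 14 days, so that the days overlap. Its log2 change of -0.12 (standard error 0.13) had an adjusted p of 0.40 (limma), with a 95% interval from -0.39 to 0.14. The direction of Hsp70b turns with the normalizer: it was called lower without a reference gene (-0.85) and called higher when centred on the targets (0.21, adjusted p = 0.0294), and it was 0.0089 against Pdi alone.

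The gap between members of a chaperone family in the same sample needs no reference gene. Hsp70c came up 0.653, 0.970 and 0.575 cycles after Hsp70a in the 7-day samples and 6.33, 6.47 and 6.02 cycles after it in the 14-day samples. The gap widened by 5.54 cycles, a 46.5-fold shift of the ratio of both transcripts (exact permutation p = 0.1). Hsp70b came up 3.68, 3.58 and 3.75 cycles before Hsp70a at 7 days and 2.60, 2.58 and 2.76 before it at 14 days, so that this gap decreased by 1.02 cycles (2.03-fold) with no overlap. The ratios among the 3 Hsp70 transcripts thus differed between the days with no overlap, in a comparison that no reference gene enters. It takes the cycles of both genes to come from the same cDNA, which was not tested. Within a day the authors' relative expression of Hsp70a and Hsp70c followed the deposited cycles, with root mean square differences of 0.00667 and 0.00189 (log2). For Hsp70b this difference was 0.195, so the gaps with Hsp70b are less certain than that between Hsp70a and Hsp70c. In all, 7 pairs of the same kind of gene were compared in this way, and 5 of them did not overlap between days and reached the smallest p of 0.1. Since no smaller p is possible, none can pass the 0.05 threshold. Each of the Hsp70 gaps follows from the others, so these are not independent. Pairs of Lea genes were not compared. The share over all pairs of the 18 genes was not computed, so the count of 5 has no background. Of the single genes, 72.2% did not overlap between days in cycles.

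Hsp90, the chaperone that matures kinases, receptors and other clients, was at 1.06, 0.874 and 1.08 at 7 days and at 1.69, 1.98 and 1.91 at 14 days. The groups do not overlap. The mean level rose from 1.005 ± 0.114 to 1.86 ± 0.147 (SD, n = 3; log2 0.89 with a standard error of 0.13, limma adjusted p = 3.8e-07). Its own cycles were earlier at 14 days in every sample, 20.65 ± 0.0472 against 20.48 ± 0.0933 (SD, n = 3). Only Hsp90 and Pimt had all their 14-day cycles before all their 7-day cycles, while 11 of the 18 genes had them all after and 5 overlapped, so that 72.2% of the genes did not overlap in cycles. Without a reference gene the change of Hsp90 was 0.17 and did not pass (adjusted p = 0.0618).

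The small heat shock proteins, which hold unfolding proteins without ATP, moved in opposite directions against Sar1 and Pdi, while both were below 0 without a reference gene. Hsp20a, matched to class I, was at 1.16, 0.961 and 0.899 at 7 days and at 0.439, 0.349 and 0.410 at 14 days. It fell 2.52-fold, with no overlap between the days (log2 -1.33 with a standard error of 0.15, limma adjusted p = 6.7e-09). Hsp20b, matched to class II, was at 1.02, 0.901 and 1.09 at 7 days and at 1.52, 1.31 and 1.32 at 14 days. All 14-day samples lay above, with a log2 change of 0.47 (standard error 0.14, limma adjusted p = 0.00372), but the change turned to -0.26 (adjusted p = 0.0535) without a reference gene and did not pass against Sar1 alone (adjusted p = 0.0784). Compared within samples, Hsp20a came up 2.50, 2.41 and 2.05 cycles before Hsp20b at 7 days and 0.527, 0.407 and 0.630 before it at 14 days. That gap decreased by 1.80 cycles, a 3.47-fold shift toward less Hsp20a for each Hsp20b (exact permutation p = 0.1).

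Both chaperonins, which close around a folding protein in mitochondria, were lower after 14 days. Cpn60a was at 1.21, 0.859 and 0.965 at 7 days and at 0.419, 0.438 and 0.379 at 14 days. For Cpn60b the 7-day levels were 1.20, 0.836 and 0.999 and the 14-day levels 0.352, 0.422 and 0.378. Neither gene overlaps between the days. The falls were 2.43-fold for Cpn60a (log2 -1.28 with a standard error of 0.14, limma adjusted p = 8.0e-09) and 2.61-fold for Cpn60b (log2 -1.39 with a standard error of 0.15, limma adjusted p = 6.0e-09), and both were called under all 5 normalizers. The gap between them was 2.80 ± 0.0453 cycles at 7 days and 2.90 ± 0.130 at 14 days (SD, n = 3, exact permutation p = 0.3, with 0.1 the smallest possible), and the samples of the days overlap.

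ClpB proteins of the Hsp100 family pull aggregated proteins apart so that other chaperones can refold them, and both genes were called higher against Sar1 and Pdi. ClpB1 was at 0.960, 0.956 and 1.09 at 7 days and at 1.32, 1.66 and 1.40 at 14 days. ClpB4, matched to a mitochondrial form, was at 1.13, 0.892 and 0.989 at 7 days and at 1.16, 1.14 and 1.42 at 14 days. The days do not overlap in either gene, though for ClpB4 the highest 7-day sample and the lowest 14-day sample nearly touch. The log2 changes were 0.54 (standard error 0.14, limma adjusted p = 0.00177) for ClpB1 and 0.30 (standard error 0.13, limma adjusted p = 0.0368) for ClpB4. Without a reference gene they turned to -0.19 (adjusted p = 0.135) and -0.42 (adjusted p = 1.3e-04), so that ClpB4 was called higher on the one scale and lower on the other. ClpB4 also lost its call against Sar1 alone (0.17, adjusted p = 0.344), in a fit of the 6 control samples alone (adjusted p = 0.116), and without control replicate 2 (0.22, adjusted p = 0.156) or replicate 3 of 7 days (0.30, adjusted p = 0.0702), or without control replicate 3 of 14 days (0.20, adjusted p = 0.196). ClpB4 came up 0.854 ± 0.210 cycles after ClpB1 at 7 days and 1.09 ± 0.283 after it at 14 days (SD, n = 3, exact permutation p = 0.4), and the samples overlap.

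Pimt, the repair methyltransferase, had the strongest rise. It was at 1.10, 0.912 and 1.0 at 7 days and at 2.07, 2.35 and 2.44 at 14 days. Each 14-day sample lay above each 7-day sample, and the mean level went from 1.003 ± 0.0926 to 2.28 ± 0.195 (SD, n = 3; log2 1.19 with a standard error of 0.14, limma adjusted p = 8.0e-09). The rise was also in its own cycles, which moved from 24.63 ± 0.0558 to 24.17 ± 0.0618 (SD, n = 3). Pimt was the only gene called higher without a reference gene (0.46), and its change ran from 1.12 to 1.26 when single control samples were left out.

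Of the 4 Lea genes, 1 passed the test, Lea2a, which was higher, and none was lower. Lea2a was at 1.20, 0.776 and 1.08 at 7 days and at 1.11, 1.15 and 1.79 at 14 days. The 14-day samples overlap the 7-day samples, and 1 sample, replicate 3, stands above the rest. The log2 change of 0.40 (standard error 0.17, limma adjusted p = 0.0368) did not pass without that sample (0.18, adjusted p = 0.337), without replicate 2 of the 7-day controls (0.21, adjusted p = 0.237) or against Sar1 alone (0.27, adjusted p = 0.189). Without a reference gene Lea2a was called lower (-0.33, adjusted p = 0.0379).

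Lea1 was the most variable gene, at 1.40, 0.631 and 1.13 at 7 days and at 1.19, 0.790 and 0.816 at 14 days. Its SD on the log2 scale was 0.594 at 7 days, against a median of 0.202 over the 18 genes, and its change of -0.13 (standard error 0.24) had an adjusted p of 0.627 (limma). It was 0.0011 against Pdi alone, 0.20 when centred on the targets and 0.11 without control replicate 1 of 7 days, and without a reference gene it was called lower (-0.86, adjusted p = 0.00392). Lea2b was at 1.11, 0.809 and 1.11 at 7 days and at 0.905, 1.04 and 1.15 at 14 days, which overlap throughout (log2 0.04 with a standard error of 0.14, limma adjusted p = 0.786). Lea4, a hydrophilic Lea protein, was at 1.06, 0.845 and 1.12 at 7 days and at 1.08, 1.38 and 1.16 at 14 days (log2 0.26 with a standard error of 0.14, limma adjusted p = 0.0965), and again the days overlap. Both turn with the normalizer: without a reference gene they were called lower, Lea2b at -0.69 and Lea4 at -0.47, and when centred on the targets they were called higher, at 0.37 and 0.59. Lea2b was -0.09 against Sar1 alone, -0.11 without control replicate 2 of 7 days and -0.05 without control replicate 3 of 14 days.

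The 3 genes grouped here under growth were all lower at 14 days. Tor, the kinase that couples nutrients to protein synthesis and growth, was at 1.20, 0.918 and 0.910 at 7 days and at 0.400, 0.390 and 0.467 at 14 days. It fell 2.40-fold with no overlap (log2 -1.26 with a standard error of 0.18, limma adjusted p = 3.8e-07). Raptor, which presents substrates to Tor, was at 1.09, 0.808 and 1.13 at 7 days and at 0.839, 0.786 and 0.768 at 14 days. Here the lowest 7-day sample lies among the 14-day samples, and the change was small, -0.33 (standard error 0.15, limma adjusted p = 0.0415). Raptor did not pass against Pdi alone (-0.20, adjusted p = 0.268), stood at 0.0036 when centred on the targets, and lost its call without control replicate 1 (-0.26, adjusted p = 0.133) or 3 of 7 days (-0.24, adjusted p = 0.185), or without control replicate 2 (-0.32, adjusted p = 0.0867) or 3 of 14 days (-0.30, adjusted p = 0.119).

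Tor came up 1.84, 1.79 and 2.30 cycles after Raptor at 7 days and 3.05, 2.99 and 2.70 cycles after it at 14 days. The gap between these partners of 1 complex grew by 0.933 cycles (1.91-fold, exact permutation p = 0.1), with no overlap between the days. Saur is an early auxin-responsive transcript that the study matched to SAUR36 of Arabidopsis. The study describes that protein as a regulator of seed germination and as promoting leaf senescence. Saur was at 0.963, 0.907 and 1.15 at 7 days and at 0.726, 0.673 and 0.767 at 14 days. The days do not overlap, and the fall was 1.39-fold (log2 -0.47 with a standard error of 0.13, limma adjusted p = 0.00201). When centred on the 18 targets Saur was at -0.14 and did not pass (adjusted p = 0.269).

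**Figure D3:**
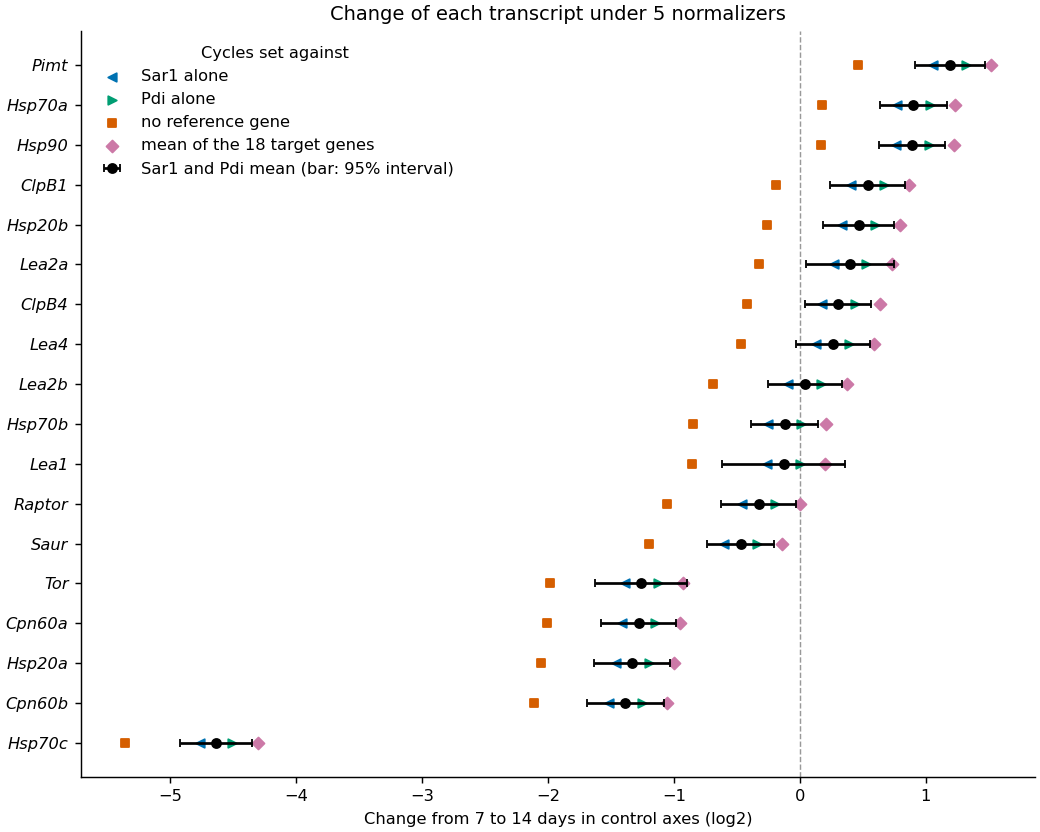
Change of each target gene from 7 to 14 days in control axes (x axis, log2) with cycles set against the mean of Sar1 and Pdi (black, with 95% interval from limma), Sar1 alone, Pdi alone, no reference gene or the mean of the 18 targets. Pimt, Hsp70a and Hsp90 stay right of 0 and Hsp70c, Hsp20a, Cpn60a, Cpn60b, Tor and Saur stay left of it under all 5, while the other 9 genes lie on both sides.

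The NO-treated axes of the same 7 and 14 days took the same step in other samples. Whether they came from the same aged seed lots as the controls is not given in the sources used here. In the NO-treated axes Pdi lay 1.475 ± 0.0740 cycles behind Sar1 at 7 days and 2.23 ± 0.205 at 14 days (SD, n = 3). In control axes it lay 1.71 and 1.97 cycles behind. The size of a difference between NO-treated and control axes therefore depends on the reference gene used. With NO, 4 genes were higher (22.2%) and 8 lower (44.4%) at 14 days. The difference between the changes passed the test in 11 of the 18 genes (61.1%, limma on the same levels). Hsp70c fell in both, with a log2 change of -4.64 in control axes and of -1.94 in NO-treated axes (difference 2.70 with a standard error of 0.20, limma adjusted p = 1.0e-12). Pimt, which rose in control axes, fell in NO-treated axes, with a change of -1.69 (difference -2.88 with a standard error of 0.19, limma adjusted p = 2.4e-13). For Hsp20a the change with NO was 0.24 (adjusted p = 0.149), from a level of 0.855 ± 0.0969 to 1.01 ± 0.0457 (SD, n = 3), against the fall in control axes (difference 1.57, limma adjusted p = 2.2e-07). Raptor had a change of 1.15 with NO (difference 1.47, limma adjusted p = 4.6e-07). Its NO level was low at 7 days, 0.303 ± 0.0380 against 1.01 ± 0.177 in the control, and at 14 days it was 0.669 ± 0.0727 against 0.797 ± 0.0368 (SD, n = 3), so that NO-treated axes had not passed the control. Hsp90, Hsp70a, Hsp20b and Tor changed in the same direction in both, by 1.23, 1.17, 0.51 and -1.38 with NO, and the difference did not pass against the mean of Sar1 and Pdi for any of the 4, with adjusted p-values between 0.0924 and 0.834. Against Pdi alone it did pass for Hsp90 (0.59, adjusted p = 0.0113) and Hsp70a (0.52, adjusted p = 0.0184), and for Hsp90 also without replicate 2 of the 7-day controls (0.44, adjusted p = 0.0359).

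**Figure D4:**
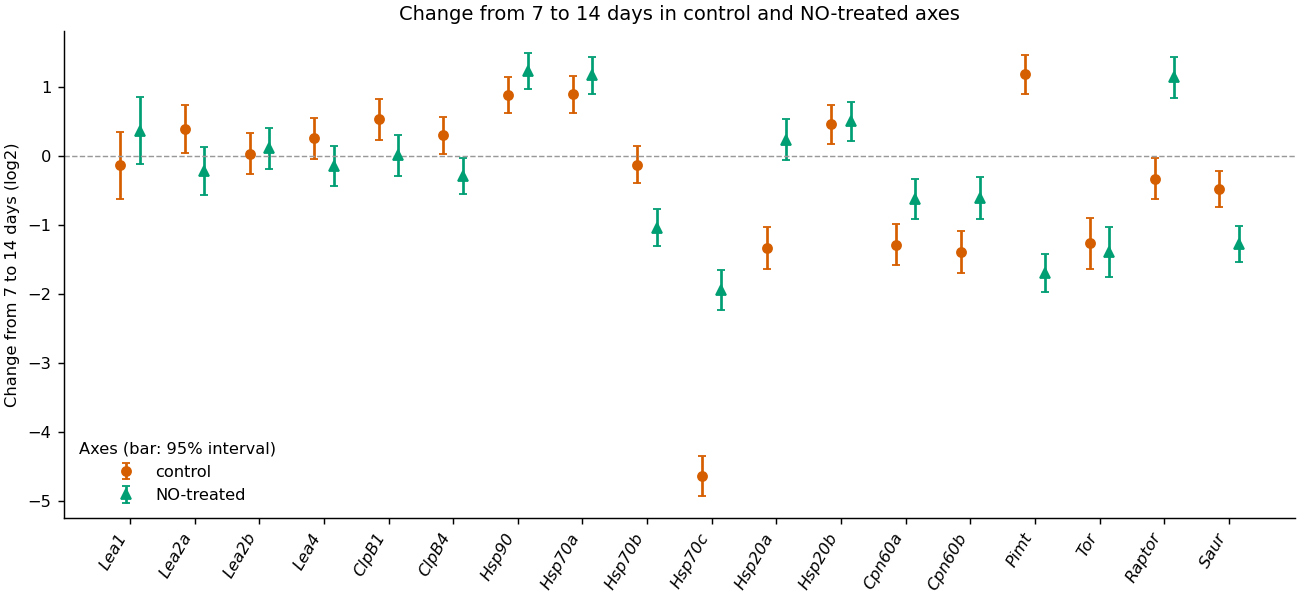
Change from 7 to 14 days (y axis, log2, levels against Sar1 and Pdi) in control axes (orange circles) and NO-treated axes (green triangles), 3 samples a group and day, with 95% intervals from limma. Pimt lies at 1.19 in control and -1.69 in NO-treated axes, and Hsp70c at -4.64 and -1.94; against no reference gene the control changes of Lea2a, Lea2b, Lea4, ClpB1, ClpB4 and Hsp20b would lie below 0.

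The deposited relative expression offers a partial check. Its control values scaled to 7 days hold Sar1 and Pdi at about 1 at both times (means of 1.002 and 1.003 for Sar1 and of 1.004 and 1.001 for Pdi). The delay of the reference genes between days was thus not subtracted from the targets in these values. The change of a target in these values differed from its change without a reference gene by a median of 0.0140 (log2) and from its change against Sar1 and Pdi by 0.715. Within a day, the relative expression of ClpB1, ClpB4, Hsp70a, Hsp70c, Hsp20a, Hsp20b, Pimt and Saur followed the deposited cycles to within a root mean square difference of 0.00667 (log2). For the other 10 genes this difference was between 0.176 and 0.195, so that their deposited values do not follow these cycles of Sar1 and Pdi. The levels across days given above for Lea1, Lea2a, Lea2b, Lea4, Hsp90, Hsp70b, Cpn60a, Cpn60b, Tor and Raptor therefore rest on reference cycles that may not be those measured beside them.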

How the data were processed

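Total RNA of the axes was treated with DNase, 200 ng was reverse transcribed, and SYBR Green qPCR was run for 40 cycles. The authors deposited the quantification cycle of each gene and sample, recorded here as a score because it is on no fixed scale, as a mean of technical repetitions. The deposited relative expression is a ratio in which each day's control averages about 1, so it was not compared across days. A further set of control values is scaled to 7 days and served only as a check. A table of the authors' own fold changes was not used.

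Levels were computed as the mean cycle of Sar1 and Pdi minus the cycle of the target, assuming 1 doubling per cycle. The 18 genes were tested with limma 3.58.1 in R 4.3.3 (1 mean for each of the 6 groups, all 18 samples, Benjamini-Hochberg over the 18 genes). The fit was also run on simulated data with independent noise of 1 spread for all genes. That simulation held no reference noise shared by the genes of a sample, so it cannot show how many of the calls here are right. Single values were compared by exact two-sided permutation tests in scipy 1.17.1. Groups came from the sample titles. All 18 genes are named, ordered by role. Members, gene lists and tests were chosen with earlier results of these data known. Alternatives were other normalizers, other samples in the fit, a replicate block, linear values, no moderation, the methods' tests and leaving out each sample. The precision is limited by 3 samples a group, and the depth behind a cycle, efficiencies and no-template controls were not analysed here. Of the 44 gene models named for the primers, 1, that of Pdi, matched the RefSeq gene table, so no positions are given.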

Additional observations from a re-analysis of the deposited data

Results flagged for a closer look

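In 11 genes the change from 7 to 14 days differed between NO-treated and control axes by the test of the difference itself (limma, adjusted p under 0.05). The differences, NO-treated minus control on the log2 scale, were 2.70 for Hsp70c, 1.57 for Hsp20a, 1.47 for Raptor, 0.78 for Cpn60b and 0.66 for Cpn60a, where the change with NO lay above that of the control. They were -2.88 for Pimt, -0.91 for Hsp70b, -0.80 for Saur, -0.61 for Lea2a, -0.59 for ClpB4 and -0.52 for ClpB1, where it lay below. A difference between changes also takes in the levels of 7 days. At 14 days the samples of NO-treated and control axes overlapped for Hsp70b, Cpn60b, ClpB4 and ClpB1, but not for the other genes named. Such separation was not particular to these genes. Among the genes without a call, Lea4, Hsp90 and Tor did not overlap at 14 days either, while Lea1, Lea2b, Hsp70a and Hsp20b did. Hsp70b was at 1.79 with NO against 1.003 in the control at 7 days, and at 0.873 against 0.922 at 14 days. For Cpn60b these mean levels were 0.619 against 1.01, and 0.404 against 0.384.

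Pimt, Hsp70c, Hsp20a, Raptor, Hsp70b and Saur passed under all 5 normalizers. Lea2a (-0.36), ClpB1 (-0.27) and ClpB4 (-0.35) did not pass against Pdi alone, and Cpn60a (0.42) and Cpn60b (0.53) did not pass against Sar1 alone. Against Pdi alone Hsp90 (0.59) and Hsp70a (0.52) passed as well. Lea4 did not pass against the mean of Sar1 and Pdi (-0.40, limma adjusted p = 0.0861) or against Pdi alone (-0.16, adjusted p = 0.494). It did pass against Sar1 alone (-0.65, adjusted p = 0.0180). The Lea4 difference also passed in raw cycles (-0.49, adjusted p = 0.0104) and against the target mean (-0.49, adjusted p = 0.00571). Taken from the deposited relative expression, an alternative added after the data were seen, the difference for Hsp70b was -0.08 (adjusted p = 0.650). There the other 10 genes still passed, and Lea4 passed too (-0.58, adjusted p = 0.00734). Lea2a lost its call when any of 4 samples was left out: replicate 2 of the 7-day control (-0.43), replicate 3 of the 14-day control (-0.39), replicate 1 of NO at 7 days (-0.54) and replicate 3 of NO at 14 days (-0.50). For ClpB1 the 4 samples were replicate 1 of the 7-day control (-0.49), replicate 2 of the 14-day control (-0.42), replicate 1 of NO at 7 days (-0.42) and replicate 3 of NO at 14 days (-0.36).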

How the results depend on the processing

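The counts of 7 genes higher and 7 lower moved most with the normalizer: 4 higher against Sar1 alone, 1 higher and 13 lower without a reference gene, and 1 higher and 12 lower in the deposited values scaled to 7 days. Leaving out single samples gave 5 to 7 higher and 6 to 7 lower, 9 to 12 genes with a different change under NO (11 with all samples), and a delay of the reference genes of 0.648 to 0.772 cycles. In the deposited values scaled to 7 days the log2 changes turned for Lea2a (-0.34), Lea2b (-0.67), Lea4 (-0.44), ClpB1 (-0.19), ClpB4 (-0.42) and Hsp20b (-0.26). Without a reference gene the same 6 turned, to -0.33, -0.69, -0.47, -0.19, -0.42 and -0.26. Lea1, Hsp70b and Raptor turned when centred on the targets (0.20, 0.21 and 0.0036), Lea1 and Hsp70b also against Pdi alone (0.0011 and 0.0089), and Lea2b against Sar1 alone (-0.091). With single samples left out the change ran from -0.46 to 0.11 for Lea1 and from -0.11 to 0.13 for Lea2b. By construction a normalizer shifts all 18 genes by 1 amount; for left-out samples the cause was not tested.

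Same-numbered samples did not all deviate together over the 18 genes: for numbers 1, 2 and 3 the correlations were 0.36, 0.31 and -0.16 between control samples of 7 and 14 days, -0.13, 0.27 and 0.15 between control and NO at 7 days, and -0.10, 0.30 and -0.23 between them at 14 days. Between 7-day control and 14-day NO they were 0.15, 0.65 and 0.26, and between 14-day control and 7-day NO -0.11, 0.08 and 0.37. Between NO at 7 and 14 days they were 0.03, 0.27 and 0.34. Number 2 was above 0 in every pair of groups, while numbers 1 and 3 took both signs. Control samples of 7 and 14 days with different numbers gave -0.46 to 0.11. The main fit did not pair samples by number, and a fit with the replicate block is given below. A correlation over genes cannot show a shift common to all genes of a sample, so whether same-numbered samples share a batch was not tested. Replicate 3 differs from replicates 1 and 2 in the decimals of its cycles, as given below. With the replicate block 7 genes were higher and 7 lower, and 11 differed under NO. Fitted on the 6 control samples alone the counts were 6 and 6, and on the 9 control samples of 7, 14 and 21 days 7 and 7. On linear values they were 8 and 7, and without moderation 6 and 6. By the methods' test across days they were 5 and 6, and by the methods' test of 2 groups 5 and 6. Precision is limited by 3 samples a group.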

Other observations

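The study matched 4 of the genes to Arabidopsis proteins named as mitochondrial: Hsp70c, Cpn60a, Cpn60b and ClpB4. Of these, 3 fell and 1 rose, with a median log2 change of -1.33 against Sar1 and Pdi, while among the other 14 genes 4 fell, 6 rose and 4 did not pass, with a median of 0.15. ClpB4, the 1 that rose, turns to -0.42 without a reference gene. This grouping was chosen after the values were seen and was not tested.

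The deposited cycles differ between replicates in their decimals. In replicate 3, all 120 cycles of the 20 genes and 6 groups equal a mean of 2 readings to 0.01 cycle after rounding, and 0 of them equal only a mean of 3. In replicates 1 and 2, 62 of 120 each equal only a mean of 3 readings. In the control samples of 7 and 14 days these were 22 of 40 in replicate 1, 21 of 40 in replicate 2 and 0 of 40 in replicate 3.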
